A study of Mus musculus with 6 samples.

Results

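Microtubule genes were followed in the hippocampus of mice given methamphetamine (MA), a psychostimulant. The genes were those whose symbol in the deposited table named an alpha-, beta- or gamma-tubulin, a kinesin heavy or light chain, a cytoplasmic dynein subunit, 1 of the structural microtubule-associated proteins (MAPs) Map1a, Map1b, Map1s, Map2, Map4, Map6 and Mapt, or a stathmin from Stmn1 to Stmn4. This choice by name gave 78 genes of 16060 rows. Of the dynein subunits it took those named Dync or Dynll, and not the light chains named Dynlrb or Dynlt. RNA-seq libraries came from the hippocampus of C57BL/6 mice, described by the study as adult males, with 3 libraries labelled Control and 3 labelled MA. The Control mice received saline, and the MA mice received escalating doses of MA of 5, 10 and 15 mg/kg in weeks 1, 2 and 3, with behavioural tests on day 22. Each label named a mouse, the animals carried no transgene that the labels name, and the whole tissue was used, so that all cell types of the dissected piece entered a library.

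Microtubules are hollow polymers of alpha- and beta-tubulin dimers, and gamma-tubulin starts their growth. Kinesins carry vesicles, mitochondria and receptors mostly towards the plus end, which in axons points to the terminal, and cytoplasmic dynein carries cargo back to the cell body. Structural MAPs such as Map2 in dendrites and Mapt (tau) in axons bind along the polymer, whereas stathmins bind free tubulin dimers. Neurons of the hippocampus hold long axons and dendrites and express these genes strongly, while a subset of kinesins acts in dividing cells.

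The tubulins were the genes whose sequences were most alike, which limits how far their values can be kept apart. The last 60 bases of the coding sequence, stop codon included, are shown for 5 beta-tubulins, because this end encodes the tail in which the isotypes are known to differ most. They were read from GENCODE M21 transcripts on GRCm38 (mm10) and are written 5′ to 3′ on the coding strand. Capitals mark bases that differed from, or had no partner in, Tubb2a in an alignment of the whole coding sequences.
Tubb2a (chr13:34074468-34074527, minus strand): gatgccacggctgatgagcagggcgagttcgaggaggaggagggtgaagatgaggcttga
Tubb2b (chr13:34127471-34127530, minus strand): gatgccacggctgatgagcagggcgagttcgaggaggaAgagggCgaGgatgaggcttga
Tubb4a (chr17:57080690-57080749, minus strand): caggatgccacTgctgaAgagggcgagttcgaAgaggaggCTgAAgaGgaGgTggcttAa
Tubb4b (chr2:25222308-25222367, minus strand): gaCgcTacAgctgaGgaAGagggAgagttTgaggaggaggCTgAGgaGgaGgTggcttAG
Tubb5 (chr17:35834982-35835041, minus strand): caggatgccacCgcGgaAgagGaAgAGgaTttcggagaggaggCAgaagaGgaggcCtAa
Over the whole coding sequence Tuba1a was identical to Tuba1b at 98.3% of alignment positions, to Tuba1c at 97.1%, to Tuba4a at 84.7% and to Tuba8 at 79.2%. Tubb2a and Tubb2b were identical at 96.5%, and the other pairs of beta-tubulins, Tubb6 included, at 80.3% to 84.6%. Of all 100-base windows of the transcript, 65.1% of those of Tuba1a, 69.5% of Tuba1b and 53.4% of Tuba1c also occurred in a transcript of another gene, as did 36.9% of Tubb2a, 27.7% of Tubb2b and 29.2% of Tubb4b. The share was 26.1% for Stmn1, 23.7% for Kifc1 and 21.2% for Kifc5b. The values of these genes are therefore uncertain where reads could have been split between copies. Tuba8, Tubb6, Kif24, Dynll1 and Stmn4, the members with the smallest p-values, shared 0 of their windows with another gene. The printed ends differ from that of Tubb2a at 3 bases in Tubb2b, but at 17 in Tubb4b.

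The deposited values were RPKM, that is reads scaled to gene length and to the size of the library, on a log scale read as log2, with an offset of 1 inferred. The table gives no read totals, and the depth of the libraries is unknown. Over the tested genes, Pearson's r between a library and the rest of its group was 0.991 to 0.993 for Control and 0.978 to 0.985 for MA, with MA replicate 3 lowest. Results that rest on MA replicate 3 are given with and without it. Its lowest value was 0.000206, held by 397 genes, and the lowest value of each other library was 0, held by 259 to 437 genes. All 11 markers of hippocampal pyramidal and granule neurons passed the filter, and their summed linear level was 359 to 464 in Control and 349 to 389 in MA. Markers of choroid plexus and blood, tissue outside the hippocampus proper, differed between the groups. The summed level of 10 choroid plexus markers was 99.5 to 477 in Control and 1930 to 5310 in MA, and 7 of the 10 passed the adjusted test. For 5 blood markers it was 1600 to 2020 and 3320 to 4380, with 3 of 5 passing. For 9 thalamus markers it was 35.5 to 56.7 in Control and 114, 111 and 55.6 in MA replicates 1, 2 and 3. MA replicate 3 thus lay within the Control range, and 0 of the 8 tested thalamus markers passed. All 8 were higher in MA on the mean, with a median log2 fold change of 0.58. Without MA replicate 3 the median was 1.02, and 7 of 8 were higher at an unadjusted p under 0.05, against 11.9% of all genes. The adjusted test then called 1 of 8, against 1.93% of all genes. None of these markers was listed at 0 in any library. Their part in the results below was not tested.

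No microtubule gene passed the adjusted test between the libraries labelled MA and Control. Of the 78 genes, 68 reached a linear level of at least 0.5 in at least 3 libraries and entered limma's test over 13321 genes. With an adjusted p under 0.05, the test called 35 genes of the table, which is 0.263%, and 0 of the 68. With an unadjusted p under 0.05 it called 5 of the 68 (7.35%) against 10.4% of all genes, so the share among microtubule genes was not above the background. Of these 5, Tuba8 was higher in MA (1.47% of the 68 against 4.99% of all genes), whereas Tubb6, Kif24, Dynll1 and Stmn4 were lower (5.88% against 5.46%). The groups did not overlap in 5 genes (7.35% against 17.5%). Tuba1c, Tuba8 and Dync1i1 lay higher in all 3 MA libraries (4.41% against 7.32%), and Kif24 and Stmn4 lay lower (2.94% against 10.2%). The mean was higher in MA for 38 of the 68 (55.9%), against 47.3% of all genes. The median log2 fold change, MA minus Control, was 0.03 over the 68 and -0.01 over all tested genes. A difference over 0.5 on the log2 scale was seen in 1 microtubule gene, Tubb6 (1.47% against 3.3%). The other 67 tested genes lay between -0.41 and 0.39. In bulk tissue, fewer cells of a type and less RNA per cell cannot be told apart.

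**Figure D1:**
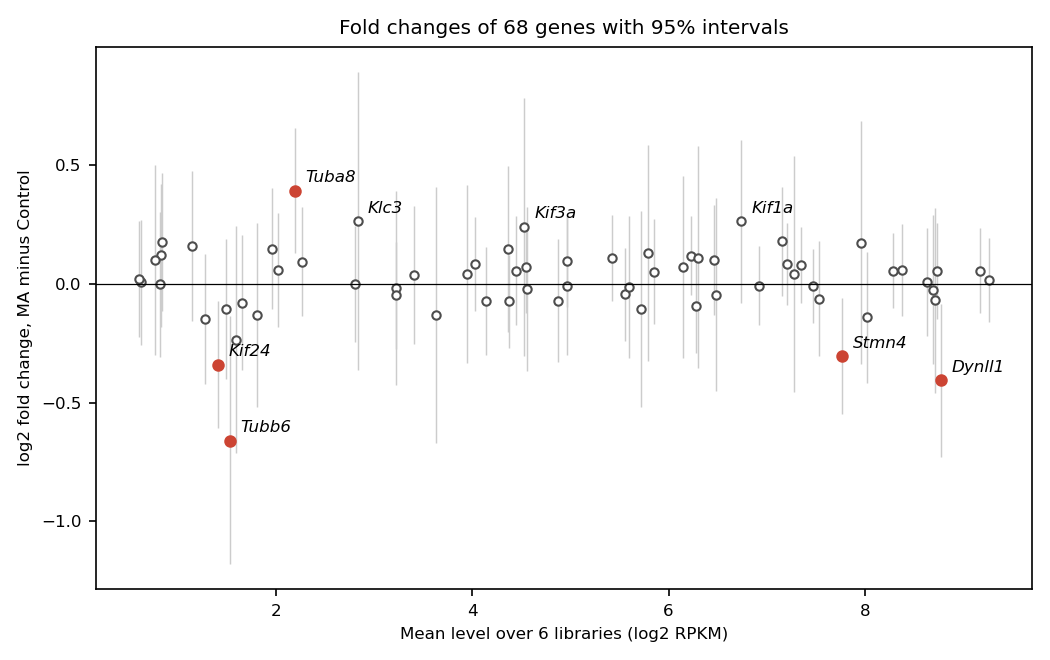
log2 fold change of the 68 tested genes (MA minus Control, vertical axis) against the mean level over the 6 libraries (log2 RPKM, horizontal axis), with grey lines for the 95% interval of the limma fit. Filled circles are the 5 genes with an unadjusted p under 0.05, Tuba8 above 0 and Tubb6, Kif24, Dynll1 and Stmn4 below 0, and all other intervals cross 0.

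Tubulins were among the most abundant of these transcripts. The log2 fold changes of the abundant isotypes lay between -0.14 and 0.12, and those of the scarce Tuba8 and Tubb6 are given below. On the RPKM scale, which is per length, the back-transformed control mean was 564 for Tuba1a, 416 for Tubb2a, 325 for Tuba1b, 305 for Tubb4a, 271 for Tuba4a, 158 for Tubb5, 143 for Tubb4b, 121 for Tubb2b and 70.8 for Tuba1c. In that order, only Tuba1b (8.27 to 8.43 in log2) and Tubb4a (8.21 to 8.29) overlapped with a neighbour in the control libraries. Tubg2 and Tubg1, the gamma-tubulins, followed at 21.9 and 20.2 and overlapped, and Tuba8, Tubb4b-ps1 and Tubb6 lay lowest, between 2.64 and 3.0, and overlapped too. Tubb4b-ps1 is annotated as a processed pseudogene of Tubb4b and shared 38.8% of its windows with other genes. Tubb3, the beta-tubulin widely used as a neuronal marker, was not analysed here.

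**Figure D2:**
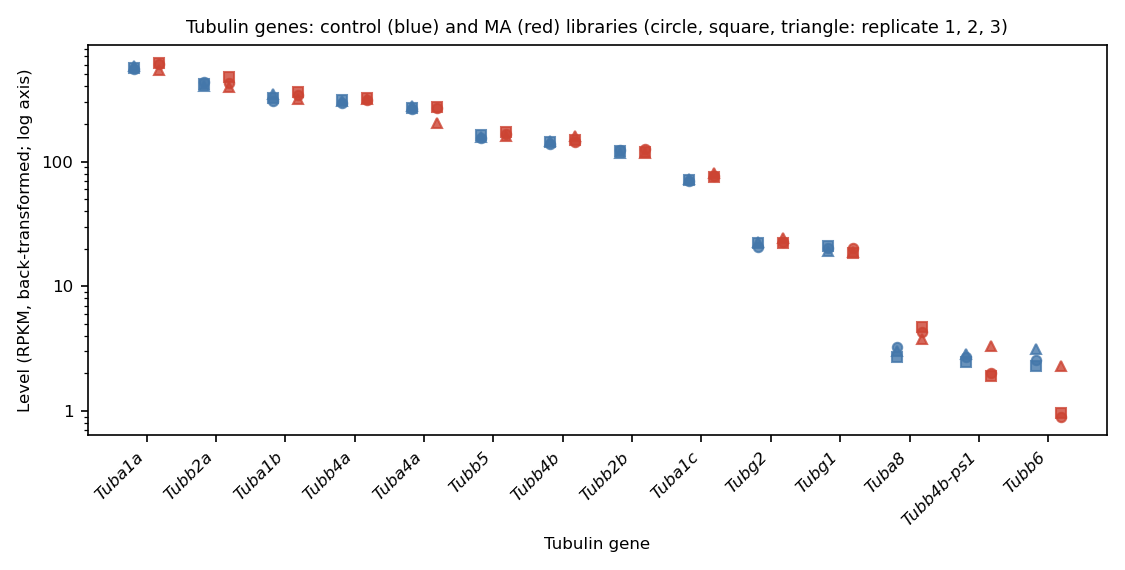
Levels of the 14 tubulin genes in each library (RPKM, back-transformed, log axis), ordered by the control mean, with Control in blue and MA in red. For the abundant genes the MA libraries sit close to the Control libraries; all 3 MA libraries lie above Control for Tuba8, and MA replicates 1 and 2 lie below it for Tubb6.

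Tuba1a, the main alpha-tubulin of neurons, was 9.11, 9.14 and 9.18 in Control replicates 1 to 3 and 9.24, 9.27 and 9.09 in MA replicates 1 to 3. This gave a log2 fold change of 0.06 with a standard error of 0.08, an adjusted p of 0.861 and a 95% interval of -0.12 to 0.24. The log2 fold changes of the other abundant isotypes also had intervals that crossed 0. They were 0.06 for Tuba1b, 0.12 for Tuba1c, -0.14 for Tuba4a, 0.05 for Tubb2a, -0.01 for Tubb2b, 0.06 for Tubb4a, 0.08 for Tubb4b and 0.08 for Tubb5. Tuba4a, an alpha-tubulin of mature neurons encoded without the final tyrosine, was 8.05 to 8.12 in Control and 8.07, 8.10 and 7.68 in MA, so that its lower mean came from MA replicate 3. Without that library its difference was -0.01. The exons of Tuba4a overlap those of Stk16 on the other strand over 37.3% of their length. For Tuba1c the 3 Control libraries were 6.15, 6.16 and 6.19 and the 3 MA libraries 6.26, 6.24 and 6.36. The groups did not overlap, but the adjusted p was 0.624. The gamma-tubulins Tubg1 and Tubg2 had log2 fold changes of -0.07 and 0.07.

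Summed over isotypes on the linear scale, alpha-tubulin was 1200, 1230 and 1280 in Control and 1290, 1330 and 1150 in MA, a ratio of 1.02. Beta-tubulin was 1150, 1160 and 1130 in Control and 1180, 1240 and 1160 in MA, a ratio of 1.04. The sums of both subunits thus overlapped between the groups.

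Tuba8, an alpha-tubulin isotype with a divergent sequence (ENSMUSG00000030137, chr6:121210696-121226854 on the plus strand), had the smallest p of the 68. It was 2.10, 1.90 and 2.0 in Control and 2.41, 2.51 and 2.26 in MA. All 3 MA libraries were above all 3 Control libraries. The means were 1.998 ± 0.10 and 2.39 ± 0.13 (SD, n = 3 each), and the log2 fold change was 0.39 with a standard error of 0.11, a 95% interval of 0.13 to 0.65, a limma p of 0.00913 and an adjusted p of 0.296. The exact permutation test gave 0.1, the smallest two-sided p that 3 against 3 allows. The p stayed under 0.05 in all 16 alternatives that tested the gene, with a log2 fold change of 0.33 to 0.50. An antisense gene, Gm15856, covers 16.3% of its exonic bases, and the counting is not stated to have used strand.

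Tubb6, a beta-tubulin of many tissues that is scarce in neurons (ENSMUSG00000001473, chr18:67390717-67402749 on the plus strand), showed the largest difference of the 68. It was 1.83, 1.71 and 2.04 in Control and 0.92, 0.97 and 1.72 in MA. MA replicates 1 and 2 were far below all Control libraries, and MA replicate 3 lay within the Control range. The log2 fold change was -0.66 with a standard error of 0.22, a 95% interval of -1.18 to -0.14, a p of 0.0200 and an adjusted p of 0.371. Without MA replicate 3 it was -0.92 with an adjusted p of 0.0310, 1 of 2 microtubule genes that passed then. The p was above 0.05 without Control replicate 3 (difference -0.57), MA replicate 1 (-0.52) or MA replicate 2 (-0.54).

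**Figure D3:**
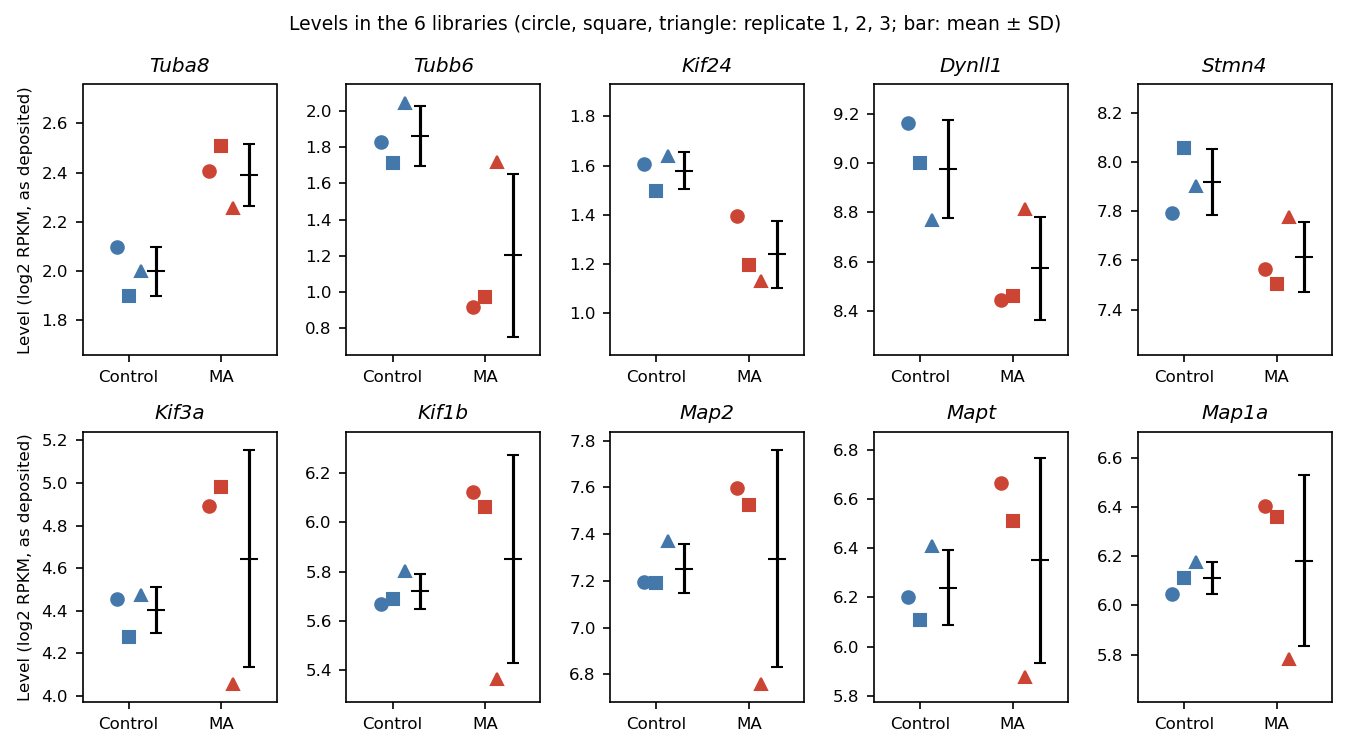
Levels (log2 RPKM as deposited) of 10 genes in each library, Control in blue and MA in red, with circle, square and triangle for replicates 1, 2 and 3 and the mean ± SD (n = 3) beside the points; the vertical axes differ between panels. In the upper row are the 5 genes with an unadjusted p under 0.05, and in the lower row 5 genes in which MA replicates 1 and 2 lie above and MA replicate 3 below all Control libraries.

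Kinesin-1, the motor for much axonal transport, is built of the heavy chains Kif5a, Kif5b and Kif5c and light chains that bind cargo. None of its 7 genes had an unadjusted p under 0.05. Klc1 was the most abundant, with a back-transformed control mean of 394, followed by Kif5a with 233. Kif5a was 7.55, 8.02 and 8.04 in Control and 8.41, 8.11 and 7.61 in MA, so that MA replicate 3 lay within the Control range and the other MA libraries above it. The difference on the log2 scale was 0.17 with a 95% interval of -0.34 to 0.68. Kif5c was 6.46, 6.45 and 6.62 in Control and 6.71, 6.63 and 6.04 in MA, and Kif5b was 4.98, 4.91 and 5.01 against 5.15, 5.02 and 4.69. Both were above Control in MA replicates 1 and 2 and below it in MA replicate 3. The light chains Klc1 and Klc2 had log2 fold changes of 0.01 and 0.10. Klc3 was 2.70, 2.82 and 2.57 in Control and 2.70, 2.56 and 3.64 in MA, so its log2 fold change of 0.27 came from MA replicate 3 and was -0.07 without it. The exons of Klc3 overlap those of Ercc2 on the other strand over 28.1% of their length.

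Kinesin-2 motors, which serve cilia and vesicle transport, gave the other gene that passed once MA replicate 3 was left out. Kif3a, a subunit of the heterotrimeric motor, was 4.45, 4.28 and 4.47 in Control and 4.89, 4.98 and 4.06 in MA. MA replicates 1 and 2 were above, and MA replicate 3 below, all Control libraries. Over all 6 libraries the log2 fold change was 0.24 with a standard error of 0.23 and an adjusted p of 0.778. Without MA replicate 3 it was 0.53 with an adjusted p of 0.0415. Its partners Kif3b and Kif3c had the same order of libraries, with 3.38, 3.45 and 2.80 in MA against 3.16 to 3.28 in Control for Kif3b and 4.59, 4.62 and 4.09 against 4.21 to 4.37 for Kif3c. Without MA replicate 3 their differences were 0.19 and 0.32, with adjusted p-values of 0.226 and 0.0832. An antisense gene covers 35.3% of the exonic bases of Kif3c. Kif17, the homodimeric kinesin-2 of dendrites, was 2.71 to 2.89 in Control and 2.70 to 2.92 in MA. Summed over the 4 genes, the linear level was 53.5, 49.8 and 56.0 in Control and 66.7, 70.7 and 43.5 in MA.

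Kinesin-3 motors carry synaptic vesicle precursors and dense-core vesicles. Their median log2 fold change was 0.11, and 0.14 without MA replicate 3, with 5 of 6 genes higher in MA and 0 with an unadjusted p under 0.05 over all 6 libraries. Kif1a was 6.46, 6.59 and 6.76 in Control and 7.08, 6.96 and 6.56 in MA. Its log2 fold change was 0.26 with a 95% interval of -0.08 to 0.61 and an adjusted p of 0.599, and 0.42 with an adjusted p of 0.0811 without MA replicate 3. Kif1b was 5.67, 5.69 and 5.80 in Control and 6.12, 6.06 and 5.36 in MA. Its log2 fold change of 0.13 became 0.37 without MA replicate 3, with an adjusted p of 0.0551. For Kif13a, Kif13b, Kif16b and Kif1c the log2 fold change lay between -0.08 and 0.15.

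Of the 14 other kinesins, Kif24 alone had an unadjusted p under 0.05, which 10.4% of all genes had. Kif24 restrains the assembly of primary cilia (ENSMUSG00000028438, chr4:41390745-41464887 on the minus strand). It was 1.61, 1.495 and 1.64 in Control and 1.39, 1.20 and 1.13 in MA, and the groups did not overlap. This was a log2 fold change of -0.34 with a standard error of 0.12, a 95% interval of -0.61 to -0.07, a p of 0.0196 and an adjusted p of 0.370. The p was above 0.05 without Control replicate 1 (difference -0.33), Control replicate 3 (-0.31) or MA replicate 2 (-0.32). Kif2a, a depolymerizing kinesin, was 3.83 to 4.02 in Control and 4.18, 4.12 and 3.6 in MA, and 19.2% of its exonic bases overlap Dimt1. Kif21b, a motor of dendrites, was 2.16 to 2.29 in Control and 2.24 to 2.37 in MA. The most abundant gene of this group, Kifc2, had a control mean of 133 on the linear scale and a log2 fold change of 0.18 with an interval of -0.05 to 0.41. Kif1bp, which matched by its name, encodes a kinesin-binding protein and not a motor, and its log2 fold change was -0.10. For Kif6, Kif9 and Kif27, which act in motile cilia, the log2 fold changes were 0.18, 0.16 and 0.01. Kif19a, which limits the length of motile cilia, was 1.70, 1.94 and 1.47 in Control and 1.18, 1.36 and 1.87 in MA, with a log2 fold change of -0.235 over all libraries and -0.435 (unadjusted p = 0.0301, adjusted p = 0.169) without MA replicate 3. The summed level of 13 motile cilium markers was 27.5 to 34.3 in Control and 31.4, 36.3 and 53.6 in MA, and its part in the values of these kinesins was not tested.

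Kinesins of cell division were near the lower end of the scale, apart from Kif22 with a back-transformed control mean of 11.9. Of 13 genes, Kif4, Kif11, Kif14, Kif15, Kif18a, Kif18b, Kif20a, Kif20b, Kif23 and Kif2c stayed below the filter, with back-transformed control means of 0.0328 to 0.283. Kif11, the motor that separates the spindle poles, was 0.45, 0.37 and 0.26 in Control and 0.27, 0.23 and 0.28 in MA. The 3 genes that entered the test were Kif22, with a log2 fold change of -0.13, Kifc1 with 0.10 and Kifc5b with 0.00. Kif22 varied within both groups, with 3.46, 4.10 and 3.51 in Control and 3.29, 3.97 and 3.42 in MA. Of 10 markers of dividing cells, 4 entered the test and 0 passed it.

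Of the 9 dynein subunits named Dync or Dynll, 7 had a lower mean in MA, and the median difference of the 9 was -0.04 on the log2 scale. Without MA replicate 3, 5 of the 9 were higher in MA and the median was 0.03. Dynll1, a light chain that also binds many proteins outside the motor (ENSMUSG00000009013, chr5:115297110-115300999 on the minus strand), had the largest difference among them. It was 9.16, 9.001 and 8.77 in Control and 8.44, 8.46 and 8.82 in MA. MA replicates 1 and 2 were below all Control libraries, and MA replicate 3 was above Control replicate 3. The back-transformed mean was 503 in Control and 380 in MA. The log2 fold change was -0.41 with a standard error of 0.14, a 95% interval of -0.73 to -0.08, a p of 0.0202 and an adjusted p of 0.373. The p was above 0.05 without Control replicate 1 (difference -0.31), Control replicate 2 (-0.40), MA replicate 1 (-0.34) or MA replicate 2 (-0.35). Dynll2, the second light chain of this kind, was 8.62 to 8.80 in Control and 8.90, 8.76 and 8.39 in MA, with a log2 fold change of -0.03. A difference between the 2 light chains was not tested.

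The motor subunit Dync1h1 was 5.90, 5.88 and 5.69 in Control and 5.98, 5.77 and 5.89 in MA, with a log2 fold change of 0.05 and a 95% interval of -0.17 to 0.27. Dync1i1, the intermediate chain of neurons, was 5.38, 5.38 and 5.36 in Control and 5.46, 5.57 and 5.41 in MA. Its groups did not overlap, and its adjusted p was 0.689. The light intermediate chains Dync1li1 and Dync1li2 were lowest in MA replicate 3, at 4.63 and 5.30 against 4.87 to 4.93 and 5.54 to 5.65 in Control. Dync2h1, the motor of transport within cilia, had a log2 fold change of -0.11. The summed linear level of the Dync and Dynll genes was 1200, 1160 and 1100 in Control and 1060, 1020 and 1000 in MA, a ratio of 0.892. This sum leaves out the light chains named Dynlrb and Dynlt. Of these, Dynlrb1 was 8.65 to 8.70 in Control and 8.53 to 8.67 in MA on the log2 scale. Without Dynll1 the sum of the Dync and Dynll genes was 630, 646 and 669 in Control and 716, 672 and 554 in MA, a ratio of 0.998.

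**Figure D4:**
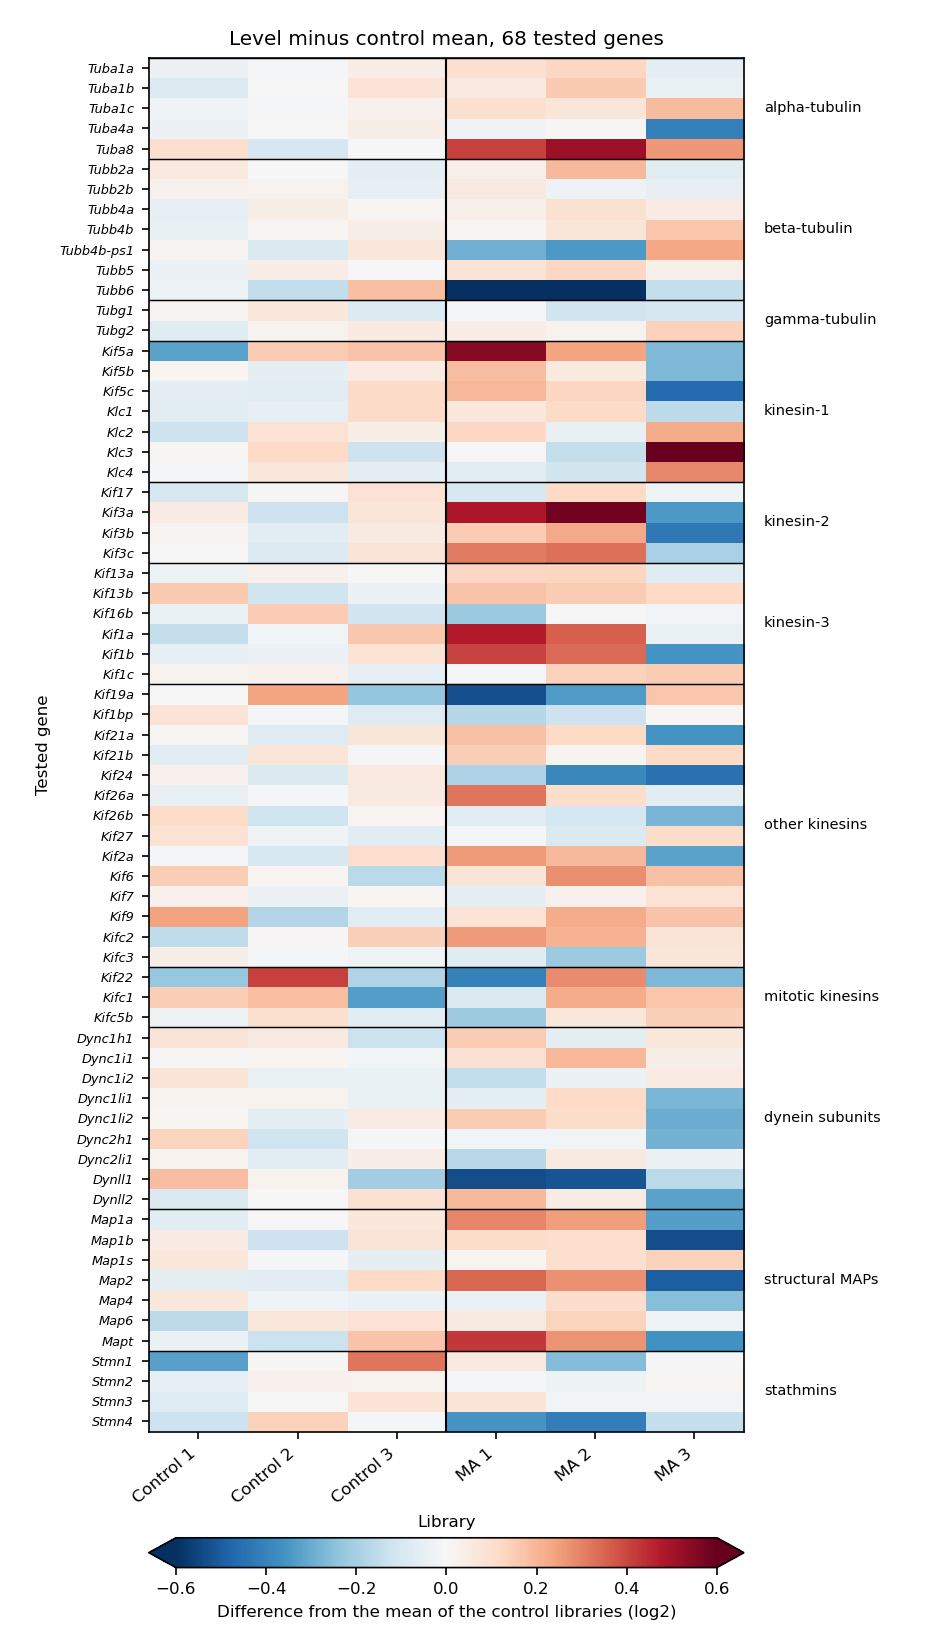
Difference of each library from the mean of the 3 Control libraries (log2 colour scale) for the 68 tested genes, one row per gene, grouped by role; differences beyond 0.6 in size share the end colours. MA replicates 1 and 2 are red and MA replicate 3 blue for Kif5a, Kif5b, Kif5c, Kif3a, Kif3b, Kif3c, Kif1b, Map1a, Map1b, Map2 and Mapt. For Map1a the differences were 0.29 and 0.25 against -0.33. Kif17, Kif13b, Kif16b, Kif1c, Map1s and Map4 do not show these colours.

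Of the 7 structural MAPs, 4 were above all Control libraries in MA replicates 1 and 2 and below them in MA replicate 3. Map2, which spaces microtubules in dendrites, was 7.20, 7.19 and 7.37 in Control and 7.60, 7.52 and 6.76 in MA. Its log2 fold change was 0.04 with a standard error of 0.21 and a 95% interval of -0.45 to 0.54, and 0.31 without MA replicate 3, with an adjusted p of 0.0863. Mapt, the tau gene, was 6.201, 6.11 and 6.41 in Control and 6.67, 6.51 and 5.88 in MA. Its log2 fold change was 0.11, and 0.35 with an adjusted p of 0.119 without MA replicate 3. Map1a was 6.04, 6.11 and 6.18 in Control and 6.41, 6.36 and 5.78 in MA, and Map1b was 5.82, 5.64 and 5.85 against 5.88, 5.87 and 5.24. These were the 4 genes, and Map1s, Map4 and Map6 did not have this order. Map4, expressed in glia and neurons, was 7.52 to 7.63 in Control and 7.53, 7.67 and 7.31 in MA. Map1s and Map6, which stabilize microtubules, had log2 fold changes of 0.08 and 0.06. None of the 7 had an unadjusted p under 0.05, and 5 of 7 were higher in MA, or 7 of 7 without MA replicate 3. Their summed linear level was 569, 551 and 595 in Control and 654, 653 and 450 in MA.

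Stathmins sequester tubulin dimers, and 1 of the 4 had an unadjusted p under 0.05, which 10.4% of all genes had. Stmn4, a stathmin of the nervous system (ENSMUSG00000022044, chr14:66344296-66361680 on the plus strand), was 7.79, 8.06 and 7.90 in Control and 7.56, 7.503 and 7.78 in MA. The groups did not overlap, although MA replicate 3 came close to Control replicate 1. The back-transformed mean was 241 in Control and 195 in MA. The log2 fold change was -0.30 with a standard error of 0.10, a 95% interval of -0.55 to -0.06, a p of 0.0209 and an adjusted p of 0.378. The p was above 0.05 without Control replicate 2 (difference -0.23), Control replicate 3 (-0.31), MA replicate 1 (-0.28) or MA replicate 2 (-0.25). Stmn3, the most abundant of the 78 genes with a control mean of 613, was 9.18 to 9.34 in Control and 9.24 to 9.34 in MA. Stmn2, which maintains axons, was 7.43 to 7.503 in Control and 7.45 to 7.49 in MA, with an interval of -0.16 to 0.15. Stmn1 varied within Control, at 8.42, 8.76 and 9.06, more than between the groups, with a log2 fold change of -0.07. Median log2 fold changes were -0.04 for the stathmins, 0.06 for the alpha-tubulins, 0.05 for the beta-tubulins, 0.04 for kinesin-1, 0.07 for kinesin-2 and 0.06 for the structural MAPs.

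The order of libraries seen in Kif3a and Map2, with MA replicates 1 and 2 above all Control libraries and MA replicate 3 below them, was then counted over all genes. It was chosen after the values were seen, so the counts are a description. It held for 16 of the 68 genes (23.5%) and for 8.82% of all tested genes. The 16 were Tuba1a, Kif5b, Kif5c, Kif3a, Kif3b, Kif3c, Kif13a, Kif1b, Kif21a, Kif26a, Kif2a, Dync1li2, Map1a, Map1b, Map2 and Mapt. The opposite order held for 3 genes, Tubb4b-ps1, Klc4 and Kifc3 (4.41% against 6.2%). MA replicate 3 was the lowest of the 6 libraries in 25 of the 68 (36.8% against 29.8%). Without MA replicate 3, 16 of the 68 had an unadjusted p under 0.05 (23.5% against 23.3%), 10 higher in MA (14.7% against 11.9%) and 6 lower (8.82% against 11.4%). The adjusted test then called 2 of the 68 (2.94% against 1.93%), Kif3a and Tubb6. With limma's sample quality weights, which give a library that stands apart less weight, it called Tuba8, Tubb6, Dynll1 and Stmn4 (5.88% against 4.4%), and 16 of the 68 had an unadjusted p under 0.05 (23.5% against 26.3%). Among tested cell type markers the order held for 4 of 10 of neurons, 3 of 8 of thalamus and 2 of 7 of endothelium. It held for 2 of 8 of astrocytes, 2 of 9 of microglia, 1 of 7 of interneurons and 1 of 6 of oligodendrocyte precursors. Among markers of hippocampal pyramidal and granule neurons it held for 0 of 11, and for choroid plexus 0 of 10. For oligodendrocytes it was 0 of 9, for motile cilium 0 of 11 and for immature neurons 0 of 6. Blood had 0 of 5 and dividing cells 0 of 4. These shares are to be read against the 8.82% of all genes. The summed linear level of the neuron markers was 3620 to 3880 in Control and 3990, 4230 and 3110 in MA, and 5 of 10 were lower in MA on the mean. For the astrocyte markers the sum was 1020 to 1100 in Control and 1200, 1100 and 892 in MA. Of these, 7 of 8 were lower in MA on the mean, with a median log2 fold change of -0.10, and 4 of 8 were higher without MA replicate 3. For the endothelial markers it was 196 to 234 in Control and 266, 256 and 219 in MA. For 9 oligodendrocyte markers the sum was 3000 to 3320 in Control and 3310, 2800 and 3480 in MA, and 8 of 9 were lower in MA on the mean. The part of these cell types in the microtubule genes was not tested.

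The same order was more frequent among genes of large exonic length, the summed length of the exons of a gene. Of the 28 microtubule genes with at least 6000 exonic bases, 13 showed it (46.4%), against 15.1% of all tested genes of that length. Of the 40 shorter genes, 3 showed it (7.5%), against 5.76% of all shorter genes. Kif3a, with 3586 exonic bases, was among these 3, whereas Map2 had 16449. The median difference from the control mean of the 28 long genes was 0.15 and 0.12 in MA replicates 1 and 2 and -0.26 in MA replicate 3. In the 40 shorter genes it was 0.01, 0.05 and 0.01. Spearman's rho between exonic length and the difference from the control mean was 0.28, 0.23 and -0.37 over the 68 genes in MA replicates 1, 2 and 3, and 0.15, 0.17 and -0.30 over 13302 genes. The genes of a library share its RNA and its normalization, so these values describe the libraries. Each library was then corrected for exonic length and GC content. The correction takes out the trend with length, so the rho left over the 68 (0.12, 0.02 and 0.11) tests nothing. The log2 fold change of Kif3a was then 0.27 and that of Map2 0.09. The difference of MA replicate 3 from the control mean went from -0.345 to -0.309 for Kif3a and from -0.493 to -0.258 for Map2. Tuba8 (2263 bases), Tubb6 (2437) and Stmn4 (1916) were short, Dynll1 (3890) was of middle length and Kif24 (8014) was long, and all 5 kept an unadjusted p under 0.05 after this correction, as the only ones of the 68 (7.35% against 11.2% of all genes). The part of length in the order of libraries was not tested.

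**Figure D5:**
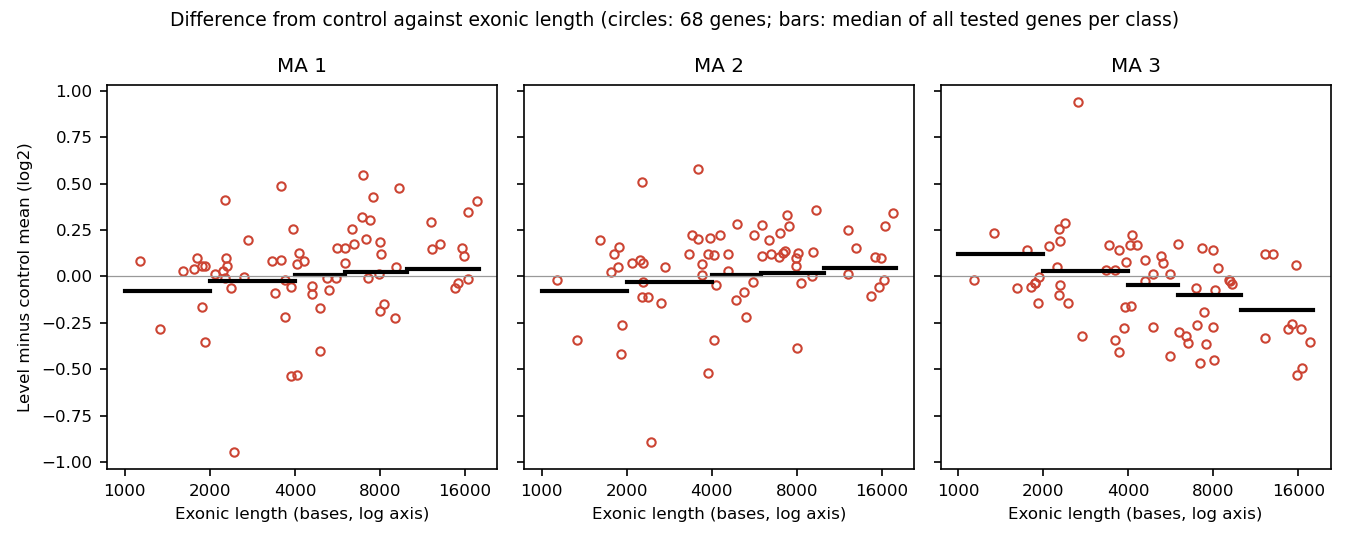
Difference from the control mean (log2) of the 68 tested genes against exonic length (bases, log axis) in MA replicates 1, 2 and 3; black bars are medians of all tested genes in 5 length classes, the shortest class drawn from 1000 bases. The medians run from -0.08 below 2000 bases to 0.04 and 0.05 from 10000 bases in MA replicates 1 and 2, and from 0.12 to -0.18 in MA replicate 3.

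Genes that fold, modify, sever or anchor microtubules, or join motors to cargo, were summarised by lists written from general knowledge of the pathway. No gene of the 5 lists passed the adjusted test. Of 22 tested genes for tubulin folding and modification, 15 were higher and 7 lower on the mean, with a median log2 fold change of 0.06. Agbl5, a deglutamylase of tubulin, was 1.82, 1.89 and 1.51 in Control and 2.14, 2.25 and 2.76 in MA, a difference of 0.65 with an adjusted p of 0.307. The tubulin deacetylase Hdac6 was 3.25 to 3.33 in Control and 3.52 to 3.98 in MA, a difference of 0.39 (adjusted p = 0.390). Ttl, which adds the final tyrosine to alpha-tubulin, was 3.69 to 3.86 in Control and 3.45 to 3.52 in MA, a difference of -0.26 (adjusted p = 0.380). These 3 of 22 were the genes of the list with an unadjusted p under 0.05, which 10.4% of all genes had. Tbcb, a tubulin-folding cofactor, was 6.64, 6.77 and 6.52 in Control and 6.16, 6.10 and 6.79 in MA, with a difference of -0.295 (adjusted p = 0.644) that became -0.518 (adjusted p = 0.0414) without MA replicate 3.

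Among 19 genes that bind plus or minus ends, 9 were higher and 10 lower, with a median of -0.02. Camsap3, which protects minus ends, alone had an unadjusted p under 0.05, at 0.39 (adjusted p = 0.277). This was 1 of 19, against 10.4% of all genes. Among 29 severing enzymes and other MAPs, 13 were higher and 16 lower. Dclk3 (-0.51), Katna1 (-0.32), Map6d1 (-0.31) and Spast (-0.27) were lower, 4 of 29 against 5.46% of all genes, and Mast1 (0.30) was higher, 1 of 29 against 4.99%, at an unadjusted p under 0.05. Katna1 and Spast encode the severing enzymes katanin and spastin, and in both all MA libraries lay below all Control libraries, as in 10.2% of all genes. Among 25 genes of dynactin, dynein adaptors and the Dynlrb and Dynlt light chains, 10 were higher and 15 lower. Ninl (0.54), Bicd2 (-0.30) and Nin (-0.26) had an unadjusted p under 0.05, which is 3 of 25 against 10.4% of all genes. Bicd2, an adaptor that joins dynein to its cargo, was 3.59 to 3.68 in Control and 3.31 to 3.38 in MA. Among 21 kinesin cargo adaptors, 14 were higher and 7 lower, with a median of 0.01. Hap1, which links huntingtin to motors, was 4.81, 4.94 and 5.25 in Control and 6.23, 6.13 and 5.48 in MA. Its log2 fold change of 0.95 had an adjusted p of 0.199, and it was 1.18 with an adjusted p of 0.0248 without MA replicate 3. Ap1m1 (0.25) and Fez1 (-0.19) also had an unadjusted p under 0.05, which made 3 of 21 against 10.4%.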

How the data were processed

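Hippocampal RNA was sequenced in 3 Control and 3 MA libraries, grouped by their titles, with 1 mouse per label. Per the study's methods, reads were aligned with Hisat2, counted with featureCounts and converted to FPKM, whereas the submitters' processing notes list Bowtie 0.12.2 and the builds mm8 and mm9. The authors deposited 1 table under the name RPKM, whose values were read as log2. The highest value was 12.298 in all 6 libraries, so a normalization between libraries that no source describes had been applied. It can make ties between libraries and alter differences. No counts are given, the depth is unknown, and the number of libraries limits the precision.

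The members and lists were chosen with earlier results of these data known. MA was compared with Control by limma (version 3.58.1, R version 4.3.3; lmFit and trended eBayes, no covariate) on the log2 values as deposited, over the 13321 genes that reached 0.5 after back-transformation in 3 or more libraries. P-values were adjusted after Benjamini and Hochberg over all of them, and 0.05 was the threshold. All p-values are two-sided. Those of limma weigh the difference between group means against the spread between these libraries, drawn towards a trend over all tested genes. The exact test sets the difference against those of all relabellings of the libraries. In each of 10 simulated tables, 200 genes were given a log2 change of 1. The median share of these genes that was recovered was 93.8%, and the median share of false calls was 5.25%. The planted change was larger in size than that of any of the 68 tested microtubule genes, where Tubb6 had the largest (-0.66). The simulation therefore does not tell how often changes as small as those of the 68 would be found. Named genes were a list fixed from the roles of the 78 genes, plus every member with an unadjusted p under 0.05. Other members are named by role, by the order of their libraries or by leaving out MA replicate 3, after their values were seen, as was the division at 6000 bases. Exonic length, GC content, coordinates and coding sequences are those of GENCODE M21 on GRCm38, matched on the identifier, and give location only. The alternatives were other offsets, filters, normalizations and variance models, sample quality weights, a replicate block, a correction for length and GC content, and leaving out each library. No value column was left unmatched.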

Additional observations from a re-analysis of the deposited data

How the results depend on the processing

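The 78 genes rest on 3 libraries per group without known depth and on a normalization that is not described. They also rest on a tissue piece whose marker levels for choroid plexus and blood differed between the groups. The summed level of the thalamus markers lay above Control in MA replicates 1 and 2 only. The 35 genes called by the adjusted test became 20 with a minimum mean of 5, 3 without a filter and 586 with limma's sample quality weights, which gave MA replicate 3 a weight of 0.194 and the other libraries 0.937 to 2.45. Without 1 library they numbered 0 to 257, with 257 without MA replicate 3, 15 without MA replicate 1, 3 without Control replicate 1 and 0 without any of the others. At an unadjusted p under 0.05 the count with no filter was 1609. Microtubule genes called, 0 of 68, became 4 with sample quality weights, which were Tuba8 (adjusted p = 0.0337), Tubb6 (0.0247), Dynll1 (0.0382) and Stmn4 (0.0382). Leaving out 1 library gave 0 to 2. The 5 with an unadjusted p under 0.05 became 2 with a minimum mean of 5 (0 higher, 2 lower) and 16 with the weights (10 higher), where 26.3% of all genes had such a p. Without 1 library they numbered 1 to 16, with 3 without Control replicate 1, 3 without Control replicate 2, 2 without Control replicate 3, 2 without MA replicate 1, 1 without MA replicate 2 and 16 without MA replicate 3. Of them, 1 to 10 were higher and 0 to 6 lower. The median log2 fold change of the microtubule genes stayed between 0.00 and 0.06 when 1 library was left out. The sign of this median, and of the 5 genes with an unadjusted p under 0.05, was the same in every alternative run that tested them, whereas 53 values of 21 other named genes, Klc1 and Kif5b among them, changed sign, to values between -0.11 and 0.16. For single named genes, 14 values came under an unadjusted p of 0.05, with the sample quality weights or without MA replicate 3, and 16 values rose above it. The log2 fold change of Stmn2, -0.01, was 0.05 with the length and GC correction. The replicate numbers were not treated as pairs in the main fit, since no text says that mice were paired. Deviations from the group means correlated at -0.20, -0.24 and -0.34 for numbers 1, 2 and 3. These correlations run over all tested genes of few libraries and cannot decide whether mice were paired. The replicate block called 15 genes (0.113%), 0 of them microtubule genes, and left 4 microtubule genes with an unadjusted p under 0.05 (5.88% against 6.32% of all genes; 1 higher, 3 lower), with Dynll1 at 0.0505. With the length and GC correction the replicate block called 8 genes. The causes of these changes were not tested.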
